A study of Mus musculus with 6 samples.

Results

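Chemokines and their receptors were followed in RNA from mouse vagal jugular-nodose ganglia, where the sensory neurons of the vagus nerve have their cell bodies. The family was chosen with earlier results of these data known, and its genes were picked by symbol alone. They were all genes of the count files whose symbol follows the pattern of CC, CXC, CX3C or C chemokines, their receptors or atypical receptors. This gave 62 of the 32719 genes in the files, made up of 39 ligands, 18 signalling receptors and 5 atypical receptors. The comparison was between 3 libraries titled as controls and 3 titled as treated. By the protocol, the mice were male wild-type C57BL/6J carrying subcutaneous osmotic pumps that delivered PBS or S961 (10 nmol each week over 2 weeks). S961 is a peptide that blocks the insulin receptor. All 6 libraries carry S961 as their treatment label, so the assignment of the controls to PBS rests on titles and protocol. Neither the age of the mice nor whether a replicate is 1 mouse or a pool was stated, so every p-value below measures the spread between these libraries, which may be technical.

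Chemokines are small secreted or membrane-anchored proteins that guide the movement of leukocytes. They are named for the spacing of their first cysteines and act through receptors coupled to inhibitory G proteins, while atypical receptors bind them without such signalling and clear or transport them. In peripheral sensory ganglia they are made by neurons, satellite glia, resident macrophages, fibroblasts and vessel cells, and some, such as Ccl2, are known for their induction after nerve injury.

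Gene counts came to between 12898607 and 33522486 per library, and levels are given as CPM, counts relative to each library's size after TMM scaling. Treated replicate 3, the smallest library, stood apart: its correlations with the other 5 libraries across 12197 genes were 0.920 to 0.944, while those 5 correlated with each other at 0.968 to 0.989 (genes are no independent replicates). The source and tissue labels read spinal cord and the cell labels name the ganglia. All 10 sensory neuron markers were detected, with a summed level of 8910 to 9740 CPM in controls and of 9780, 9020 and 7180 CPM in treated replicates 1, 2 and 3. Prdm12, a regulator of pain-sensing neurons derived from the neural crest, had 51.9, 47.7 and 37.7 CPM in controls and 99.6, 59.4 and 116 CPM in treated libraries. The groups did not overlap, although the difference stayed short of the edgeR threshold (adjusted p = 0.621), and its part in the values below was not tested.

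None of the chemokine or receptor genes passed the test between treated and control ganglia, and most of the higher treated means rested on treated replicate 3. Of the 62 genes, 5 had 0 counts in every library, 34 more did not pass the filter on low counts, which asks for counts in several libraries, and 23 were tested (14 ligands, 4 signalling receptors and all 5 atypical receptors). With edgeR's quasi-likelihood test 0 of these 23 passed at an adjusted p of 0.05, where 0% of all 16019 genes tested did, and their adjusted p-values ran from 0.729 to 0.994. DESeq2, which called 0.556% of all genes, and limma-voom, which called 0% without and 0.0499% with sample weights, also called 0 of the 23. Without the low-count filter edgeR called 0 of 57 chemokine and receptor genes with a count, and 0.0941% of all genes. Among the 23 tested genes 1, Cxcl10, had an unadjusted edgeR p under 0.05, where the share over all genes tested was 6.67%. Without the low-count filter 8 of the 57 did, and 7 of these were not in the main fit. The share over all genes was not taken for that fit, so the 8 have no background beside them. The signs were mixed, with 15 positive and 8 negative log2 fold changes, where 52.8% were positive over all genes tested. The median of the 23 was 0.60, against 0.016 over all genes tested, and it was -0.09 without treated replicate 3, when 10 were positive and 13 negative. Treated replicate 3 was the highest library for 15 of the 23 genes, or 65.2%, where it was the highest for 34.3% of all genes tested.

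**Figure D1:**
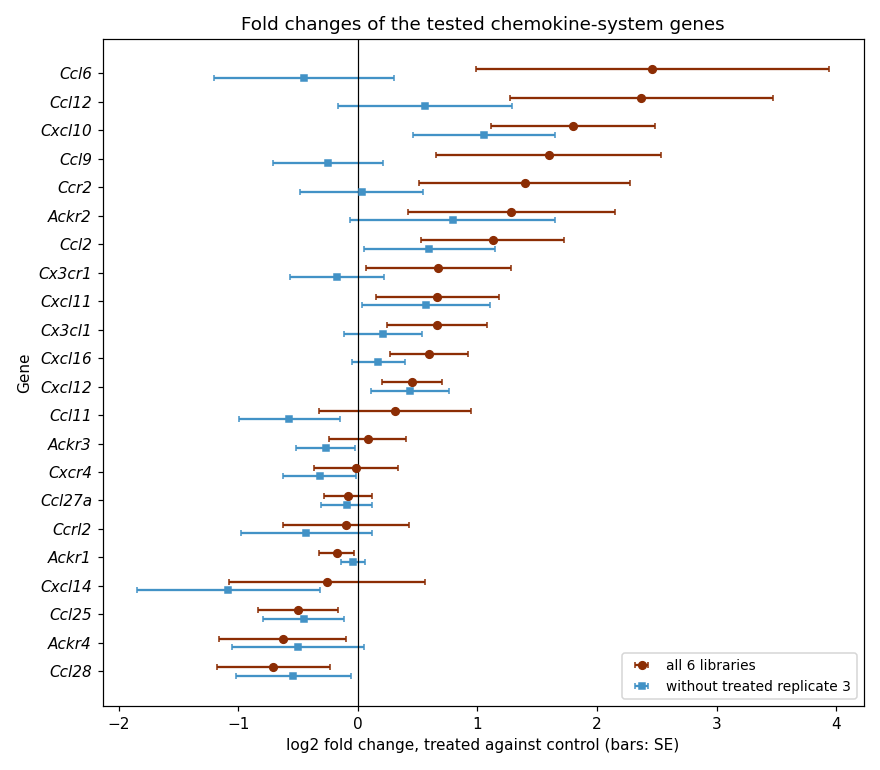
Log2 fold change of 22 of the 23 tested genes, treated against control, on the x axis, with bars for the SE. Circles are the fit on all 6 libraries and squares the fit without treated replicate 3: Ccl6 moves from 2.46 to -0.45 and Ccl9 from 1.60 to -0.25, while Cxcl10 stays positive at 1.80 and 1.06.

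A few ligands had every treated library above every control. To show what lies upstream of some of them, the windows of Cxcl10, Cxcl2, Ccl8 and Cxcl13 are printed here 5′ to 3′. They are from RefSeq's promoter table (build GRCm38.p6). Each window is the 250 bases before the RefSeq start, except that of Cxcl2, which was shortened to 222 bases to end before the GENCODE start. Cxcl10 and Cxcl2 attract T cells and neutrophils respectively, mouse Ccl8 is a ligand of Ccr8, and Cxcl13 attracts B cells. Capitals mark matches to the NF-kB consensus, to the core of the interferon-stimulated response element, to AP-1 (TGANTCA) and to C/EBP (TTGCNNAA), searched on both strands, and to TATAAA on the given strand.
Cxcl10, minus strand, chr5:92348890-92349139: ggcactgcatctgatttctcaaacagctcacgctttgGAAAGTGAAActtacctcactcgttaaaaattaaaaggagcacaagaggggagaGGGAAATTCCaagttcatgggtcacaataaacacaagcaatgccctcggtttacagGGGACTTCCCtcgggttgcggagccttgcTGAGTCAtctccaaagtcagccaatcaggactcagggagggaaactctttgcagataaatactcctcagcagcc
Cxcl2, plus strand, chr5:90903649-90903870: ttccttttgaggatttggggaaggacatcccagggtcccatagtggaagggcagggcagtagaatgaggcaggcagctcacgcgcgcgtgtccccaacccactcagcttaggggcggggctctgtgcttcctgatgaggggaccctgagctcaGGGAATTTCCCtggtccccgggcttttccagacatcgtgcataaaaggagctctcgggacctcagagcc
Ccl8, plus strand, chr11:82114935-82115184: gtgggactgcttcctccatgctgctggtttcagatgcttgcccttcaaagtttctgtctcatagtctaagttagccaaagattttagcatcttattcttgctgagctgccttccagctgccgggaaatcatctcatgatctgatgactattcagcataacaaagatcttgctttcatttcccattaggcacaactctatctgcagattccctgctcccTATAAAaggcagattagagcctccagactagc
Cxcl13, plus strand, chr5:95956689-95956938: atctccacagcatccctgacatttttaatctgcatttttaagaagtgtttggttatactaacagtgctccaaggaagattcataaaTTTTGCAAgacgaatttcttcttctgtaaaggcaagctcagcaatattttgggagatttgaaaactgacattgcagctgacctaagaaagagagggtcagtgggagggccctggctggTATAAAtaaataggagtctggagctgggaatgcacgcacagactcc

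The Cxcl10 window held the interferon response core at -213 to -204, NF-kB matches at -159 to -150 and at -103 to -94, and an AP-1 match at -74 to -68, counted from the RefSeq start. In the Cxcl2 window the capital run is a pair of overlapping NF-kB matches on opposite strands. Ccl8 had only TATAAA, at -32 to -27, and Cxcl13 had TATAAA at -46 to -41 and a C/EBP match. Ccl22, the other ligand with every treated library above every control, had no match in its window, which is not printed. Of the 62 genes, 47 were matched by symbol in the promoter table, with 56 windows, since some genes have several starts and their windows can overlap. An NF-kB match stood in 10 of those 56 windows (17.9%) and in 3.90% of the 32851 windows of all genes, and the 10 belonged to Ackr2, Ccl20, Ccl9, Ccr3, Ccr6, Ccrl2, Cxcl1, Cxcl10, Cxcl2 and Cxcl3. The interferon response core stood in 3 of the 56 (5.36%, all windows 2.98%) and AP-1 in 6 (10.7%, all windows 6.75%). C/EBP was matched in 8 of the 56, from 6 genes (14.3%, all windows 9.56%), and TATAAA in 12 (21.4%, all windows 7.59%). A match describes these letters only and is no evidence of binding.

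The interferon-inducible ligands Cxcl9 and Cxcl10 recruit activated T cells through Cxcr3, and Cxcl11 is grouped with them here. Cxcl10 (ENSMUSG00000034855, chromosome 5, 92346638 to 92348889, minus strand, GRCm38) had 0.286, 0.423 and 0.338 CPM in controls and 0.951, 0.522 and 2.38 CPM in treated libraries. Every treated library lay above every control, although treated replicate 2 was close to control replicate 2. Its log2 fold change was 1.80 ± 0.69 (SE), or 3.48-fold, or 1.06 without treated replicate 3, at an unadjusted p of 0.0318 and an adjusted p of 0.729 by edgeR. It was the 1 tested gene of the family with all treated libraries higher, where the share over all genes tested was 7.04%. Its level was low, with 21 counts in all 3 controls and 77 in all 3 treated libraries, and 133 of its exonic bases are shared with Art3 on the opposite strand, a gene at 40.7 to 83.6 CPM, and the strand setting used in counting was not stated, so whether Art3 reads are among its counts is not known. Cxcl11, annotated as a polymorphic pseudogene, had 0.515, 1.04 and 0.810 CPM in controls and 0.743, 1.64 and 1.43 CPM in treated libraries. Here control replicate 2 lay above treated replicate 1, and the log2 fold change of 0.66 ± 0.51 did not pass. Of the 3794 exonic bases of Cxcl11, 1582 are shared on the opposite strand with Gm2673, a gene not among those counted. Cxcl9, which did not pass the filter, had 4, 1 and 1 counts in controls and 22, 3 and 11 in treated libraries. The summed level of the 3 genes was 1.03, 1.5 and 1.22 CPM in controls and 2.35, 2.26 and 4.68 CPM in treated libraries. All treated sums lay above all control sums, which among the 13 role groups also held for the neutrophil attractants and for no other. The sums are low and were not tested. The receptor Cxcr3 had 3 control counts and 9 treated counts in all.

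Ccl2, Ccl7 and Ccl12 attract monocytes mainly through Ccr2, and their genes lie on chromosome 11 beside that of Ccl8, with which they are summed here as monocyte attractants. Ccl2 (82035571 to 82037453) had 0.802, 0.576 and 0.608 CPM in controls and 1.40, 0.591 and 2.46 CPM in treated libraries. Treated replicate 2 was within the control range, and the log2 fold change of 1.13 ± 0.60 (SE), or 0.60 without treated replicate 3, had an edgeR adjusted p of 0.742. Ccl12 had 0.286, 0.231 and 0.878 CPM in controls and 0.416, 0.905 and 5.95 CPM in treated libraries. Its log2 fold change of 2.37 ± 1.10 was 0.56 without treated replicate 3, the library that held 68.7% of its summed level. Ccl8, below the test filter, had 0, 4 and 1 counts in controls and 13, 7 and 63 in treated libraries, with no overlap. Relative to depth that is a ratio of 13.1 (95% exact binomial interval 5.37 to 41.3), and 3.81 (1.39 to 13.0) without treated replicate 3. Such intervals cover counting error only. Ccl7 had 4, 7 and 11 counts in controls and 12, 9 and 34 in treated libraries, and its ratio of 1.97 (1.18 to 3.39) became 0.908 (0.475 to 1.73) without treated replicate 3. As a sum, the 4 ligands had 1.32, 1.23 and 2.30 CPM in controls and 2.56, 2.05 and 16.1 CPM in treated libraries.

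Ligands of the macrophage inflammatory group attract monocytes, macrophages and other leukocytes, in part through Ccr1. Ccl6 had 0.744, 0.461 and 2.03 CPM in controls and 0.357, 1.18 and 16.3 CPM in treated libraries. Treated replicate 1 was the lowest of all 6 libraries and treated replicate 3 the highest. The log2 fold change of 2.46 ± 1.48 (SE) turned to -0.45 without treated replicate 3. Ccl9 had 1.78, 0.884 and 1.22 CPM in controls and 1.01, 1.15 and 9.85 CPM in treated libraries. Its log2 fold change of 1.60 ± 0.94 likewise turned to -0.25 without treated replicate 3, and it was -0.15 with sample weights in limma-voom. Ccl3 had 31 of its 36 counts in treated replicate 3, with 4 in the controls and 1 over treated replicates 1 and 2. Ccl4 and Ccl5 had 5 and 9 counts over all 6 libraries.

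The neutrophil attractants of the CXC family bind Cxcr2, and none of them passed the filter. Cxcl2 (chromosome 5, 90903871 to 90905938) had 0, 1 and 0 counts in controls and 10, 5 and 32 in treated libraries. Each treated library held more than all 3 controls together, and the ratio relative to depth was 37.0 (95% exact binomial interval 6.32 to 1490), or 14.3 (2.2 to 601) without treated replicate 3. Fitted without the low-count filter, Cxcl2 had the smallest p of the family (unadjusted p = 0.000843, edgeR adjusted p = 0.220), still short of the threshold. Cxcl3 had 0 counts in the controls and 2, 0 and 27 in treated libraries, at least 7.60-fold higher on a floor of 3 counts over the control group, while the 95% exact binomial interval of the ratio started at 5.8. All but 2 of those counts came from treated replicate 3, and a stretch of 116 bases of its transcript is 98.3% identical to Cxcl2, so reads there are hard to assign. Cxcl1 had 1, 2 and 0 counts in controls and 6, 4 and 0 in treated libraries, Cxcl15 had 8 counts in all and Cxcl5 had 0. Their receptor Cxcr2 had 3 control counts and 9 treated counts in all, and Cxcr1 had 6 and 0, at least 2.54-fold lower on a floor of 3 counts over the treated group, with an upper interval bound of 0.668 on the treated to control ratio.

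**Figure D2:**
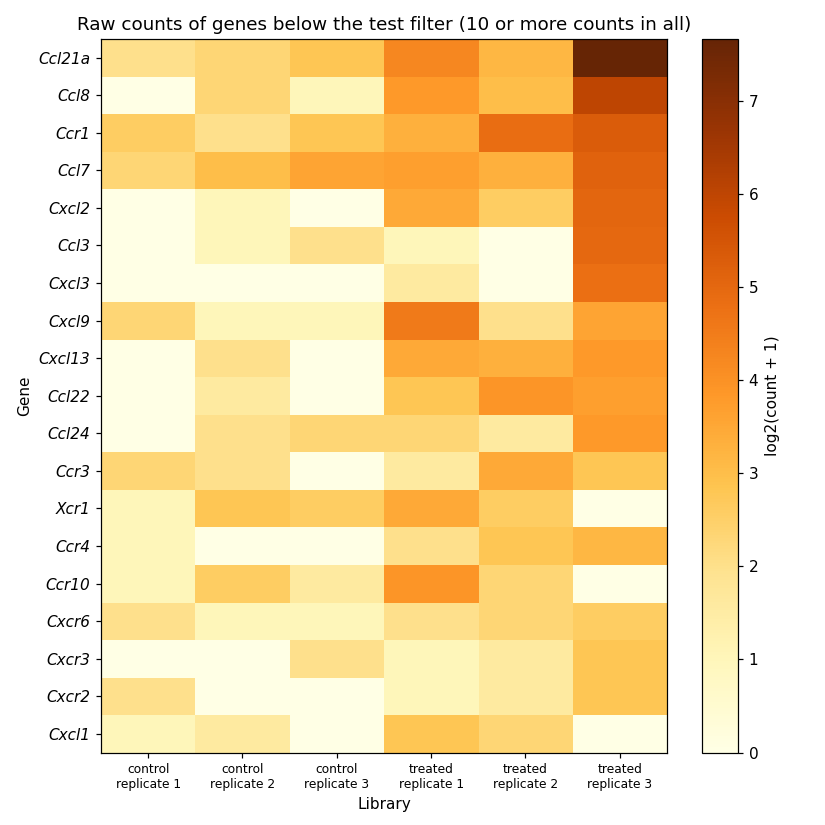
Heat map of raw counts, as log2(count + 1), for the 19 genes with 10 or more counts in all that were not tested, with 1 column per library. Ccl21a reaches 202 counts in treated replicate 3 against 3 to 18 in the other libraries, while Cxcl2 has 10, 5 and 32 counts in the treated libraries and at most 1 in a control.

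Over all 57 genes with a count, 6 had every treated library above every control (all genes with a count, 5.45%) and 2 had every treated library below (all genes, 5.43%). The 6 were Cxcl10, Cxcl2, Ccl8, Cxcl13, Ccl22 and Ccr4, and of these only Cxcl10 was tested. Among genes with a count that were not tested, 3.24% had all treated libraries higher and 2.36% lower, against 5 and 1 of the 34 such genes here. Cxcl13 had 0, 3 and 0 counts in controls and 10, 9 and 13 in treated libraries, a ratio of 8.39 (95% exact binomial interval 2.62 to 42.8) relative to depth. Ccl22, a ligand of Ccr4 made by dendritic cells and macrophages, had 0, 2 and 0 counts in controls and 6, 14 and 12 in treated libraries, a ratio of 12.6 (3.21 to 108). Ccr4, found on type 2 helper and regulatory T cells, had 1, 0 and 0 counts in controls and 3, 6 and 8 in treated libraries, a ratio of 13.4 (2.09 to 559). Without treated replicate 3 these ratios were 6.03, 9.52 and 8.56, with lower interval bounds of 1.77, 2.31 and 1.19. The 2 with all treated libraries lower were Ackr4 and Cxcr1.

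The most abundant tested ligands per exonic length were Ccl11, with 11.1 CPM per kb in controls, Ccl27a with 3.24, Cxcl12 with 2.60 and Cxcl16 with 2.10. The levels that follow are CPM, not divided by length. Cxcl12 (chromosome 6, 117168535 to 117181367), which holds stem cells and leukocytes in tissues through Cxcr4, had 15.6, 29.5 and 18.7 CPM in controls and 24.0, 33.8 and 29.7 CPM in treated libraries. Control replicate 2 lay within the treated range, and the log2 fold change of 0.45 ± 0.25 (SE) was 0.43 without treated replicate 3, with an edgeR adjusted p of 0.742 on all libraries. Ccl11, eotaxin, which attracts eosinophils, had 13.2, 6.34 and 16.5 CPM in controls and 7.10, 8.91 and 29.1 CPM in treated libraries. Its spread within each group was wider than the difference of the means, and the log2 fold change of 0.31 ± 0.64 was -0.57 without treated replicate 3. Fibroblast markers, a list of 8 genes that were all detected, had a summed level of 891, 659 and 1140 CPM in controls and 478, 743 and 2160 CPM in treated libraries. Fibroblasts are a known source of Ccl11, and the part of that list in the Ccl11 values was not tested.

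Membrane-anchored ligands can hold cells in place as well as being shed. Cx3cl1, fractalkine, a neuronal ligand of macrophage Cx3cr1, had 1.95, 3.80 and 2.97 CPM in controls and 3.12, 3.65 and 7.23 CPM in treated libraries. Treated replicates 1 and 2 lay inside the control range, and the log2 fold change of 0.66 ± 0.42 (SE) was 0.21 without treated replicate 3. Cxcl16 had 6.70, 4.96 and 7.36 CPM in controls and 6.87, 7.34 and 14.7 CPM in treated libraries. Again only treated replicate 3 left the control range, and the log2 fold change of 0.59 ± 0.33 was 0.17 without it. Zmynd15 shares 552 exonic bases with Cxcl16 on the opposite strand, and had 0.862 to 2.06 CPM.

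Epithelial and mucosal chemokines all had negative log2 fold changes where tested, and none passed. Ccl28 had 1.49, 1.04 and 1.35 CPM in controls and 0.624, 1.15 and 0.556 CPM in treated libraries, a log2 fold change of -0.71 ± 0.48 (SE) with an overlap at treated replicate 2. Ccl25, best known from thymus and gut, had 3.09, 3.38 and 5.54 CPM in controls and 2.35, 3.48 and 2.62 CPM in treated libraries. Its log2 fold change was -0.50 ± 0.34, or -0.20 without control replicate 3, and 204 of its 7445 exonic bases are shared with Elavl1 on the opposite strand, a gene at 43.8 to 49.8 CPM. Ccl27a, a skin chemokine, had 6.93, 6.72 and 9.45 CPM in controls and 6.66, 7.72 and 7.38 CPM in treated libraries, a difference of -0.08 ± 0.20 on the log2 scale. Cxcl14, at 0.269 to 1.15 CPM in controls and 0.268 to 1.11 CPM in treated libraries, was at -0.26 ± 0.82, and without control replicate 3 the sign changed to 0.45. Ccl20 had 0 counts, and Cxcl17 had 1.

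Some chemokine genes lie in near-identical copies on chromosome 4, so counts of single copies are uncertain. Ccl21a, which guides dendritic cells and T cells into lymphatic vessels and lymph nodes, had 3, 4 and 6 counts in controls and 18, 8 and 202 in treated libraries. Treated replicate 3 held 91.2% of its summed level, and the ratio of 13.8 (95% exact binomial interval 7.90 to 26.3) relative to depth was 1.90 (0.943 to 4.03) without that library. Its transcript is 99.3% identical over 870 bases to Ccl21d (Gm21541 in GENCODE M21) and 99.5% identical over 402 bases to Ccl21b, and both were listed at 0 counts, as was Ccl27b, a copy of Ccl27a. The markers of lymphatic endothelium, a source of Ccl21a, summed to 83.1, 167 and 89.0 CPM in controls and 113, 186 and 171 CPM in treated libraries. That sum is mostly Reln. Mmrn1 and Lyve1, also on the list, had 14.1 and 6.83 CPM in treated replicate 3 against at most 1.08 and 1.28 CPM in the other libraries. Prox1, the transcription factor that defines lymphatic endothelium, had 0.401, 0.615 and 0.203 CPM in controls. It had 1.49, 0.905 and 1.35 CPM in treated libraries, so it was not highest in treated replicate 3. The levels of Flt4 and Pdpn, the rest of the list, are not given here. The part of lymphatic endothelium in the Ccl21a values was not tested. Ccl19, the other ligand of Ccr7, had 3 counts in all, and Ccr7 itself had 6 in all controls and 1 in all treated libraries. The remaining ligands of the family, Ccl1, Ccl17, Ccl24, Ccl26 and Xcl1, had between 1 and 26 counts over all 6 libraries, Ccl24 the most, with 13 of its 26 in treated replicate 3.

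**Figure D3:**
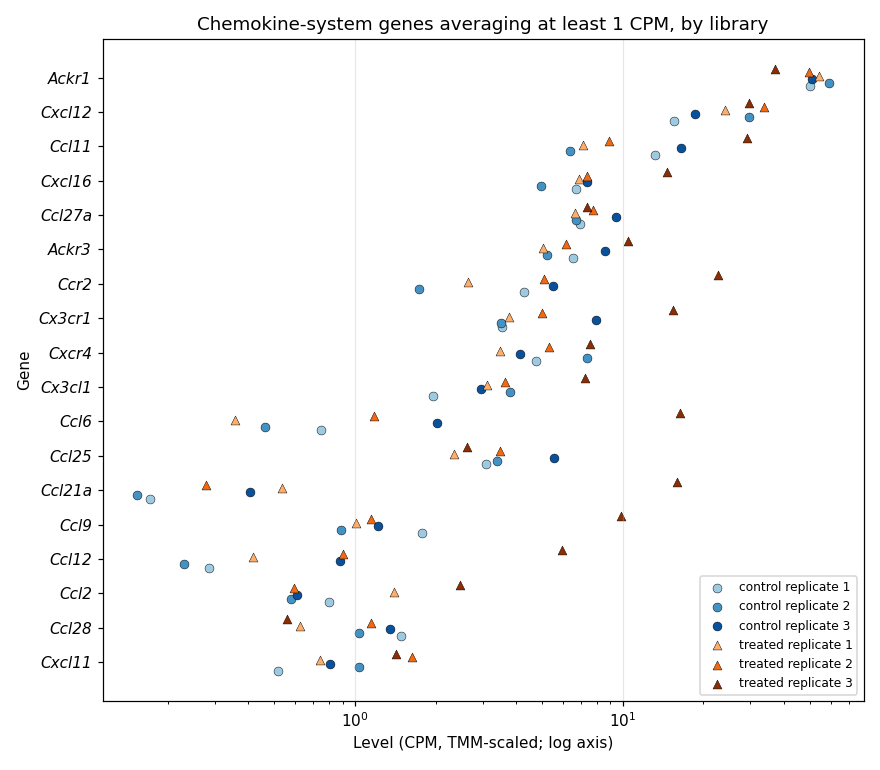
Level in CPM, on a log axis, of 18 of the 19 genes that averaged at least 1 CPM, with 1 point per library, circles for controls and triangles for treated libraries. Treated replicate 3 is far to the right of the other libraries for Ccl21a (16.0 CPM), Ccl6 (16.3 CPM), Ccl9 (9.85 CPM) and Ccr2 (22.7 CPM). The libraries lie closer together for Ackr1 and Ccl27a.

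Among the signalling receptors, 4 of 18 were tested. Ccr2 (chromosome 9, 124101950 to 124113557), the receptor that brings monocytes out of the marrow and into tissue, had 4.29, 1.73 and 5.47 CPM in controls and 2.65, 5.08 and 22.7 CPM in treated libraries. Treated replicates 1 and 2 lay within the control range, and the log2 fold change of 1.39 ± 0.88 (SE) was 0.03 without treated replicate 3. Cx3cr1, the fractalkine receptor of tissue macrophages, had 3.55, 3.50 and 7.97 CPM in controls and 3.77, 5.01 and 15.4 CPM in treated libraries. Control replicate 3 exceeded treated replicates 1 and 2, and the log2 fold change of 0.67 ± 0.61 was -0.17 without treated replicate 3. Both of these receptors followed the same order, with treated replicate 3 highest and control replicate 3 the highest control.

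Cxcr4, the Cxcl12 receptor, did not share that order. It had 4.75, 7.38 and 4.12 CPM in controls and 3.48, 5.29 and 7.54 CPM in treated libraries, a log2 fold change of -0.01 ± 0.35 (SE). Ccr1, below the test filter, had 5, 3 and 6 counts in controls and 9, 28 and 39 in treated libraries, a ratio of 4.27 (95% exact binomial interval 2.39 to 8.18) that was 2.51 (1.33 to 5.04) without treated replicate 3. Treated replicate 1 overlapped the controls in CPM. Further receptors were sparse: Cxcr5, Cxcr6, Ccr6, Ccr8, Ccr9, Ccr10, Xcr1 and Ccr3 had between 1 and 27 counts over all libraries. At this depth 3 counts correspond to between 0.0895 and 0.233 CPM in a library.

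Atypical receptors were all tested, and their summed level was 57.9, 66.4 and 60.9 CPM in controls and 60.6, 57.4 and 50.1 CPM in treated libraries. Most of it was Ackr1, the Duffy antigen receptor of venules and red cells, which binds many inflammatory chemokines. Ackr1 (chromosome 1, 173331886 to 173333750, minus strand) had 49.9, 58.9 and 51.0 CPM in controls and 54.2, 49.5 and 37.2 CPM in treated libraries, a log2 fold change of -0.18 ± 0.15 (SE) that was -0.04 without treated replicate 3. Of its 1405 exonic bases, 361 are shared on the same strand with Cadm3, a neuronal adhesion gene at 330 to 447 CPM, so the Ackr1 level is uncertain. Its counts were between 11.2% and 13.2% of the Cadm3 counts in every library. How many Ackr1 reads come from Cadm3 transcripts was not tested.

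The other atypical receptors share no exonic base with another gene on the same strand. Ackr3, which scavenges Cxcl12, had 6.53, 5.23 and 8.57 CPM in controls and 5.02, 6.16 and 10.5 CPM in treated libraries. The groups overlapped, and its log2 fold change of 0.08 ± 0.32 (SE) was -0.27 without treated replicate 3. Ackr4, a scavenger of Ccl19, Ccl21 and Ccl25, was the 1 tested gene with every treated library below every control (all genes tested, 7.65%), at 0.630, 1.23 and 0.608 CPM against 0.594, 0.591 and 0.397 CPM. The gap between control replicate 3 and treated replicate 1 was 0.608 to 0.594 CPM, the groups overlapped when libraries were scaled by size alone, and the log2 fold change of -0.63 ± 0.53, or -0.21 without control replicate 2, did not pass. On the opposite strand 479 of its exonic bases are shared with Acad11. Ackr2, a scavenger of inflammatory CC chemokines, was at 1.28 ± 0.87, at 0.79 without treated replicate 3 and at 2.63 without control replicate 2, with 1, 13 and 2 counts in controls and 10, 17 and 13 in treated libraries. Ccrl2, which presents chemerin, was at -0.10 ± 0.53, with 9 to 16 counts in each library.

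Summed over all 39 ligands, the level was 54.7, 60.9 and 70.9 CPM in controls and 59.4, 75.0 and 166 CPM in treated libraries. For the 18 signalling receptors it was 14.9, 15.1 and 22.5 CPM in controls and 12.6, 20.6 and 59.1 CPM in treated libraries. In both sums treated replicate 1 lay within or below the control range and treated replicate 3 far above it. The macrophage markers, of which 12 of 12 were detected, summed to 79.7, 51.3 and 123 CPM in controls and 65.3, 121 and 490 CPM in treated libraries. Neutrophil markers (11 detected) summed to 5.38, 1.08 and 13.6 CPM in controls and 1.61, 13.8 and 49.2 CPM in treated libraries. Of these, S100a8, S100a9, Camp, Ltf, Ngp and Mpo were highest in treated replicate 3. Elane was highest in treated replicate 2, and Retnlg, Ly6g, Mmp8 and Stfa2l1 in a control. Ly6g had 4, 0 and 0 counts in controls and 1, 0 and 0 in treated libraries. Dendritic cell markers (8 detected) summed to 72.4, 58.6 and 106 CPM in controls and 76.1, 112 and 312 CPM in treated libraries. Fat cell markers (8 detected) summed to 29.2, 2.15 and 13.8 CPM in controls and 1.99, 48.5 and 444 CPM in treated libraries.

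Lymphocyte markers were low throughout. T cell markers (9 detected) summed to 2.75, 3.65 and 1.62 CPM in controls and 3.21, 3.83 and 6.11 CPM in treated libraries. In treated replicate 3 Cd3d, Cd3e and Cd3g were at 0 counts, while Cd4 (1.98 CPM), Lck (3.33 CPM) and Cd247 (0.794 CPM) had their highest level there. B cell markers (7 detected) summed to 1.15, 0.961 and 2.23 CPM in controls and 1.43, 1.29 and 6.27 CPM in treated libraries. In treated replicate 3 Ms4a1 was at 0 counts, while Cd79b (2.86 CPM), Cd22 (2.38 CPM) and Cd79a (0.476 CPM) had their highest level there. Markers of NK cells (7 detected) summed to 0.505 to 1.19 CPM over all libraries. The part of these cell types in the chemokine and receptor values was not tested. In whole ganglia, more cells of a type and more RNA per cell cannot be told apart.

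**Figure D4:**
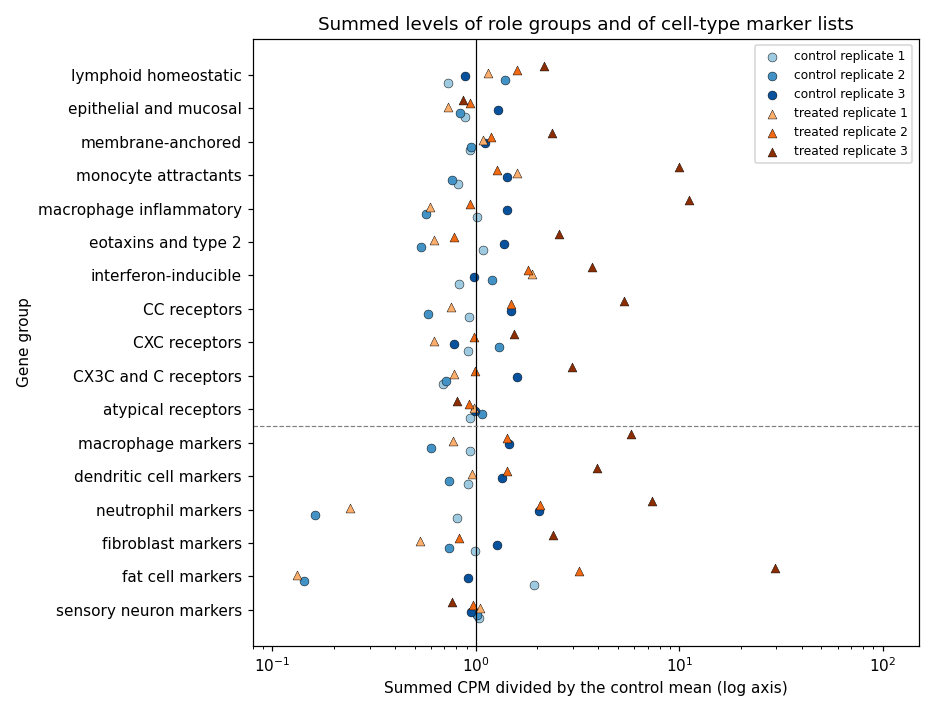
Summed CPM of role groups (above the dashed line) and of cell-type marker lists (below it), divided by the mean of the 3 controls, on a log axis with 1 point per library. Treated replicate 3 is 9.99 times the control mean for the monocyte attractants, 11.2 times for the macrophage inflammatory ligands and 0.811 times for the atypical receptors. Among the marker lists it is 5.77 times for macrophages, 3.94 for dendritic cells, 7.37 for neutrophils, 2.41 for fibroblasts, 29.5 for fat cells and 0.766 for sensory neurons.

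Many of these genes are neighbours in the genome: 41 of the 62 lie in 10 runs with gaps of at most 500 kb. On chromosome 11 the run Ccl2, Ccl7, Ccl11, Ccl12, Ccl8 and Ccl1 spans 82035571 to 82305690, and its 3 tested members Ccl2, Ccl11 and Ccl12 were at 1.13, 0.31 and 2.37 on the log2 scale, and at 0.60, -0.57 and 0.56 without treated replicate 3. A run of receptors on chromosome 9 includes Ccr1, Ccr2, Ccr3, Ccr9, Cxcr6 and Xcr1. There Ccr1 and Ccr2 had their highest level in treated replicate 3, as did Ccr3 and Cxcr6 on only 6 and 5 counts. Xcr1 and Ccr9, with at most 10 and 4 counts in any library, had 0 counts in treated replicate 3, the smallest library. The run of Cxcl9, Cxcl10 and Cxcl11 on chromosome 5, from 92321347 to 92365485, is the interferon-inducible group described above. The neutrophil attractants form a separate run there, from 90759360 to 90905938.

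Genes that act around chemokines were examined as 9 lists of 95 genes, of which 81 were tested and 0 passed (edgeR), with 12 higher and 3 lower at an unadjusted p under 0.05, where 4% and 2.67% of all genes tested did. The median of the 81 was 0.23, and 0.08 without treated replicate 3. For the signs below, 52.8% of all genes tested had a positive log2 fold change, and 50.7% without treated replicate 3. Of 9 tested genes for inducing cytokines and their receptors, 8 were positive, with the interleukin-17 receptor Il17ra at 1.73 ± 0.45 (SE), going from 2.56 to 8.57 CPM, and the macrophage growth factor Csf1 at 0.61 ± 0.18. Without treated replicate 3 these were at 1.35 and 0.54. For NF-kB and interferon transcription, 14 of 16 were positive, among them the interferon-induced Ifit3 at 0.56 ± 0.17, the NF-kB inhibitor Tnfaip3 at 1.05 ± 0.39 and the interferon regulator Irf7 at 0.65 ± 0.25. Among effectors of receptor signalling 12 of 16 were positive, with the kinase Ptk2b at 0.83 ± 0.19, at an adjusted p of 0.587 the smallest of the 81. Without treated replicate 3 the medians of these 3 lists went from 0.61, 0.25 and 0.40 to 0.25, 0.17 and 0.12.

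Lists for the earlier steps of receptor signalling had medians closer to 0. The 9 G protein subunits had a median of -0.04, with 4 positive and 5 negative. Receptor kinases and arrestins had a median of -0.13, with 2 positive and 4 negative, with Arrb1, an arrestin that turns receptors off, at 0.32 ± 0.09 (SE) and the kinase Grk3 at -0.36 ± 0.11. The RGS proteins, which shorten G protein signals, had a median of 0.02, with 4 of 7 positive. Genes for chemokine processing and presentation were positive in 11 of 12, and their median of 0.23 became 0.06 without treated replicate 3. Of 5 genes for chemerin receptors and related proteins 4 were positive, but without treated replicate 3 their median went from 0.71 to -0.10, and Pitpnm3, a reported receptor of a human chemokine, was at -0.48 ± 0.18. The platelet chemokine Pf4, a CXC ligand whose symbol does not follow the family's pattern, was at 1.54 ± 1.12, with 145 counts in treated replicate 3 against 16 to 45 elsewhere, and -0.45 without that library. Ppbp, the other platelet chemokine, had 29 of its 36 counts in treated replicate 3.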

How the data were processed

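Per the submitters' processing notes, the authors' tools were STAR 2.7.7a, bcl2fastq 2.20, edgeR and DESeq2, and the build was mm10. The labels' protocols describe strand-specific libraries from about 6 ng of total RNA and reads of 100 bp. They give RNA integrity numbers of 6.6 to 9.1 as a range, not per library. The values the authors deposited are raw counts of exonic reads per gene, 1 file per library. How reads were counted, with which annotation release and strand setting, was not given in the sources used here. In each file the last 3 lines, which are read totals, were left out.

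Coordinates, exon lengths and gene overlaps are from GENCODE M21 (GRCm38, the build of mm10), which matched 62 of the 62 genes by identifier. Promoter windows are from RefSeq (GRCm38.p6). Near-identical transcripts were found with megablast at 95% identity or more over at least 100 bases.

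The fit to the counts of all genes used edgeR 4.0.16 in R 4.3.3 (robust quasi-likelihood F test, TMM scaling, filterByExpr with a minimum count of 10). Benjamini-Hochberg adjustment ran over the 16019 genes that passed the filter, and calls needed an adjusted p under 0.05. Log2 fold changes are treated over control, and each SE was taken as the absolute log2 fold change over the root of F. When tested on simulated data, the fit missed some of the changed genes and its share of false calls was above the nominal rate. Alternatives used DESeq2 1.42.0 and limma 3.58.1, other scalings and filters, a block on replicate number, and fits lacking 1 library. Replicates were not duplicates: the lowest chi-square per degree of freedom within a group was 7.93.

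The genes and lists were chosen with earlier results of these data known. Values in every library are given for genes averaging at least 1 CPM and for the 5 with the smallest p, and at most 3 genes per surrounding list are named. Other genes with values, and the promoters printed, were chosen after their values were seen. Values of 1 gene of the family are not reported here.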

Additional observations from a re-analysis of the deposited data

How the results depend on the processing

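The count of 0 chemokine and receptor genes called held under every scaling, filter, test, block and left-out library tried, and at an adjusted p under 0.1. Over all genes, edgeR called 0 but 26 without the low-count filter, DESeq2 89 and limma-voom with sample weights 8, and leaving out 1 library gave 0 to 9 (7 without treated replicate 1, 9 without treated replicate 3). With the replicate block 1 gene passed. Deviations from the group means correlated at 0.0142, 0.564 and 0.488 for replicates 1, 2 and 3, and at -0.495 to 0.253 between unlike numbers. Replicates 2 and 3 thus correlated more closely than any unlike pair, and replicate 1 did not. Whether the numbers pair the libraries is not known, and the main fit did not use them.

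The 2 tested genes whose groups do not overlap became 1 with library size only, 8 without the low-count filter, 0 at 5 CPM in 3 libraries and 8 over every gene with a count, an alternative chosen after seeing the data, and leaving out 1 library gave 3 to 8 (4 without control replicate 1, 6 without control replicate 2, 8 without control replicate 3, 7 without treated replicate 1, 6 without treated replicate 2), where groups of 2 overlap less easily. Among the log2 fold changes of the 23 tested genes, 308 of 329 alternative values kept their sign and 0 passed, the smallest adjusted p being 0.381. The 21 that changed sign belonged to 9 genes, and the cause was not tested. Without treated replicate 3 they were Ccl9 (-0.25), Ccl6 (-0.45), Cx3cr1 (-0.17), Ccl11 (-0.57) and Ackr3 (-0.27). In limma-voom, without and with sample weights, Ccl11 was at -0.0141 and -0.375 and Ackr3 at -0.0391 and -0.146, and Ccl9 was at -0.15 with weights. Without control replicate 2 Ccl11 was at -0.02, Ackr3 at -0.09 and Cxcr4 at 0.27, and without control replicate 3 Ccl27a was at 0.0848 and Cxcl14 at 0.45. Cxcl14 was at 0.09 and 0.03 without treated replicates 1 and 2, Ccrl2 at 0.0487, 0.078 and 0.0231 without control replicate 1 and treated replicates 1 and 2, and Cxcr4 at 0.22 without treated replicate 1. Leaving out 1 library in turn, the highest or lowest values on the unreversed side were 2.05 for Ccl9, 3.27 for Ccl6, 1.17 for Cx3cr1, 0.638 for Ccl11, -0.181 for Ccl27a, -1.08 for Cxcl14, 0.284 for Ackr3, -0.43 for Ccrl2 and -0.32 for Cxcr4. For the ligand, receptor and atypical receptor sums, the difference of treated and control means was 37.9, 13.2 and -5.72 CPM, and 4.99, -0.94 and -2.76 CPM without treated replicate 3. The filter on low counts left 34 genes with counts untested.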
